A study of Rattus norvegicus with 15 samples.

Results

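The genes described here encode the presynaptic machinery that releases neurotransmitter from vesicles. They were taken from a list of 37 genes for SNARE proteins, their regulators, calcium sensors, active zone scaffolds, Rab3 proteins, vesicle proteins and endocytic proteins. All 37 were present among the 22314 genes of the count table, and all 37 passed the filter on low counts, which kept 14880 genes. The counts come from bulk RNA of dorsal CA1, a hippocampal field needed for contextual memory, in wild-type male Sprague-Dawley rats 8 to 9 weeks old. Every group had an injection of Accell siRNA, a form that enters cells without a transfection reagent, into dorsal CA1. The naive group (5 libraries, numbers 1, 2, 9, 11 and 12) received scrambled siRNA and no training. The scrambled trained group (5 libraries, numbers 5, 6, 10, 15 and 16) received the same siRNA and, 5 days later, contextual fear conditioning, in which an animal learns that a place predicts a shock. The Rnf20-labelled group (5 libraries, numbers 4, 8, 14, 18 and 20) received siRNA against Rnf20, the ligase that attaches ubiquitin to histone H2B, and the same training. No group with Rnf20 siRNA and no training is among the samples, and the time from training to dissection is not in the labels. The labels do not state that each library came from its own animal, and p-values therefore speak of the spread among these libraries alone.

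Neurotransmitter release begins when vesicles filled with transmitter are tethered and primed at the active zone, a protein scaffold facing the synaptic cleft. A vesicular SNARE protein then zips together with SNARE proteins of the plasma membrane, and calcium entering through nearby channels binds synaptotagmins and triggers fusion. The membrane is afterwards recovered by endocytosis and refilled. Most mRNA of such proteins lies in neuronal cell bodies, and many of the terminals in CA1 belong to axons of CA3 cells.

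Total counts ranged from 12537250 to 20644425 per library. Rnf20 itself was at 41.8 ± 2.28, 43.2 ± 5.39 and 42.0 ± 2.32 CPM (mean ± SD, n = 5) in the naive, scrambled trained and Rnf20-labelled libraries. Its log2 fold change between the Rnf20-labelled and scrambled trained libraries was -0.041 (SE 0.0824, 95% interval -0.22 to 0.13, unadjusted p = 0.625, edgeR adjusted p = 0.945), so the transcript was not shown to be lower under the label, and the group is called by its label throughout. Of 10 CA1 pyramidal markers, 8 were in the table and 7 were tested, and none of the 8 was at 0 in every library. Their summed level was 531 to 1108 CPM in the naive group, 328 to 1661 CPM in the scrambled trained group and 574 to 974 CPM in the Rnf20-labelled group. CPM values are counts relative to the scaled library size, in the usual CPM unit. Groups are listed below in the order naive, scrambled trained and Rnf20-labelled, and libraries of a group in the order of their numbers. Fold changes are log2 values from 1 edgeR fit to all 15 libraries.

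After training under scrambled siRNA, 36 of the 37 genes had a lower mean than in the naive libraries. The median log2 fold change of the 37 was -0.21, against -0.01 for all genes tested, of which 52.8% were below 0. The values ran from -0.58 (Rims3) to 0.10 (Unc13c). The count of 36 below 0 was 34 to 36 with any 1 library left out, 23 with a pan-neuronal score as covariate, 29 with a microglia score and 26 with 1 surrogate variable. None of the 37 passed an adjusted p of 0.05 in edgeR, where 0% of all genes passed. None of the 37 passed in limma-voom, which called 0 of 14880 genes. In DESeq2 none of the 37 passed either, where 53 of 21906 genes did, 14 of them lower. At an unadjusted p under 0.05, 3 of the 37 were lower in edgeR (Rims1, Unc13b and Vamp1), where 3.35% of all genes were, and none was higher, where 6.62% of all genes were. At that level DESeq2 gave 5 lower, where 2.98% of all its genes were, and limma-voom gave 3 lower, where 3.94% were. For 0 of the 37 did the scrambled trained group lie wholly below the naive group, where 0.659% of all genes did so, and for none did it lie wholly above, where 1.1% did.

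The comparison of siRNA labels sets Rnf20 siRNA beside scrambled siRNA in trained animals. Without an untrained Rnf20 siRNA group, it cannot separate an effect tied to training from one of the siRNA alone. In the Rnf20-labelled libraries, 36 of the 37 genes had a higher mean than in the scrambled trained libraries, with a median of 0.20 against 0.00 for all genes, of which 50.7% were above 0. The count of 36 above 0 was 33 to 37 with any 1 library left out, 23 with the pan-neuronal score as covariate, 21 with the microglia score and 17 with 1 surrogate variable. None of the 37 passed an adjusted p of 0.05 in edgeR, limma-voom or DESeq2, and in edgeR 0% of all genes did. At an unadjusted p under 0.05, 4 of the 37 were higher (Rims1, Rims2, Bsn and Syt7) in edgeR, where 2.63% of all genes were, and none was lower, where 2.98% were. At that level DESeq2 and limma-voom each gave 4 higher, where 2.27% and 2.84% of their genes were. No gene of the 37 had groups without overlap, where 0.397% of all genes were higher and 0.262% lower without overlap. This comparison shares the 5 scrambled trained libraries with the one above, so values of opposite sign in the 2 comparisons are not independent of each other.

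Between the Rnf20-labelled and naive libraries, 22 of the 37 genes had a lower mean and 15 a higher one, with a median of -0.05 against 0.00 for all genes, of which 49.4% were below 0. Without Rnf20-labelled library 18 the balance turned, with 5 of the 37 below 0 and 32 above. None of the 37 passed an adjusted p of 0.05 in edgeR, limma-voom or DESeq2, where edgeR called 0% of all genes. None of the 37 was at an unadjusted p under 0.05 in any of the 3 tools, where 1.09% of all genes were lower and 1.21% higher in edgeR, and none had groups without overlap, where 0.249% of all genes did in each direction. In the test among the 3 groups, none of the 37 passed an adjusted p of 0.05, and 2 (Rims1 and Rims2) were at an unadjusted p under 0.05, where 6.44% of all genes were. The smallest adjusted p of that edgeR test among the 37 was 0.743.

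**Figure D1:**
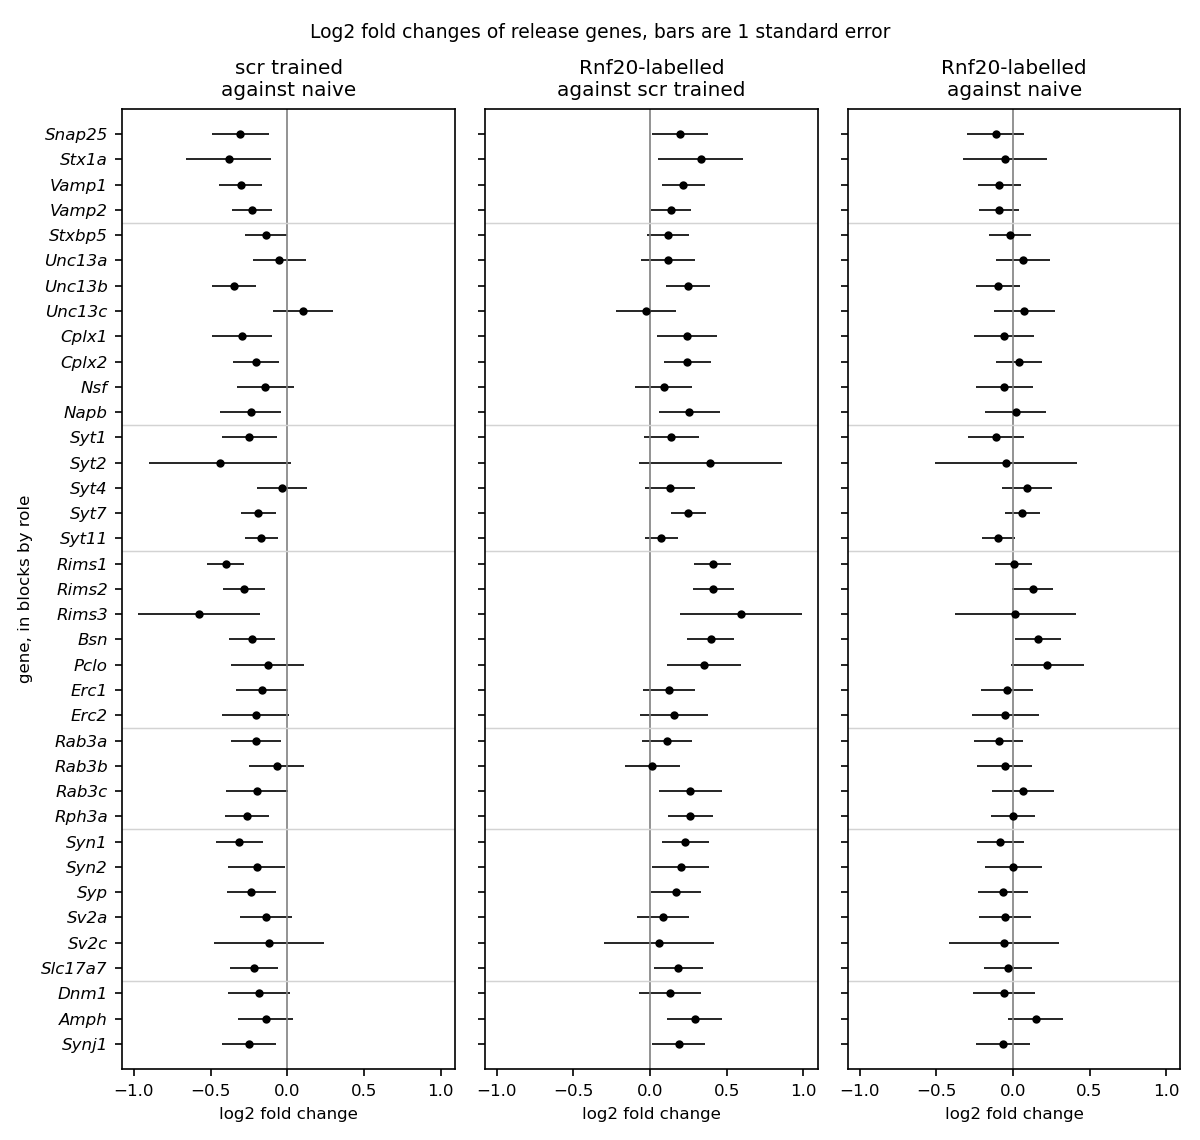
Log2 fold change of each of the 37 genes (vertical axis, in blocks by role) with bars of 1 standard error from edgeR, in the 3 comparisons (panels). In the left panel 36 points lie below 0, in the middle panel 36 lie above 0, and in the right panel 22 lie below 0, all with adjusted p above 0.05.

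The fusion machinery proper is formed by Snap25 and Stx1a on the plasma membrane and by Vamp1 and Vamp2, the synaptobrevins, on the vesicle. Vamp1 was at 337, 290.2, 328, 269 and 318 CPM in the naive libraries. It was at 293, 263, 199, 202 and 292 CPM in the scrambled trained libraries. It was at 290.0, 250.4, 365, 232 and 312 CPM in the Rnf20-labelled libraries. Scrambled trained libraries 6, 10 and 15 lay below every naive library and libraries 5 and 16 lay inside the naive range. In the Rnf20-labelled group libraries 8 and 18 lay below that range and library 14 above it. The fold change of Vamp1 between scrambled trained and naive libraries was -0.30 (SE 0.14, 95% interval -0.60 to -0.0058, unadjusted p = 0.0462, edgeR adjusted p = 0.488). Snap25 was at 1935 ± 348, 1564 ± 316 and 1791 ± 428 CPM, Vamp2 at 1037 ± 65.3, 885 ± 167 and 974 ± 131 CPM and Stx1a at 109 ± 27.9, 83.7 ± 23.9 and 105 ± 47.6 CPM. All 4 of these genes had a negative fold change in the scrambled trained libraries, between -0.38 (Stx1a) and -0.23 (Vamp2). Against the naive libraries, Vamp2 in the Rnf20-labelled libraries stood at -0.091 (SE 0.13, 95% interval -0.37 to 0.19, unadjusted p = 0.496, edgeR adjusted p = 1.00).

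Among the regulators of SNARE assembly, the Unc13 genes encode the Munc13 proteins, which prime vesicles by opening syntaxin. Unc13b was at 44.7, 45.3, 37.2, 43.3 and 48.4 CPM in the naive libraries. It was at 37.2, 41.0, 25.2, 32.9 and 35.9 CPM in the scrambled trained libraries. It was at 36.4, 36.7, 43.3, 33.1 and 55.3 CPM in the Rnf20-labelled libraries. Scrambled trained libraries 5, 10, 15 and 16 and Rnf20-labelled libraries 4, 8 and 18 lay below every naive library, library 5 by a margin smaller than the rounding of these values. Its fold change after training was -0.35 (SE 0.14, 95% interval -0.65 to -0.043, unadjusted p = 0.0278, edgeR adjusted p = 0.443). Between the Rnf20-labelled and scrambled trained libraries it was 0.25 (SE 0.14, 95% interval -0.054 to 0.55, unadjusted p = 0.100, edgeR adjusted p = 0.832). Unc13a, the main form of excitatory synapses, was at 189 ± 13.8, 183 ± 57.1 and 198 ± 32.2 CPM, with fold changes of -0.051 and 0.12 in the comparisons of training and of siRNA label. Unc13c was the exception to both common directions. It was at 15.7, 11.8, 18.5, 11.4 and 10.7 CPM in the naive libraries and at 14.2, 12.9, 16.7, 8.95 and 20.7 CPM in the scrambled trained libraries, and its groups overlapped, with fold changes of 0.10 and -0.027 (edgeR adjusted p = 0.893 and 0.983).

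The other regulators shared the common direction without passing any threshold. Complexins bind the assembled SNARE bundle and both clamp and promote fusion. Cplx1 was at 458 ± 89.7, 373 ± 92.4 and 441 ± 109 CPM and Cplx2 at 1067 ± 78.2, 925 ± 199 and 1096 ± 215 CPM. Stxbp5, or tomosyn, which competes with the vesicular SNARE and inhibits priming, was at 175 ± 24.3, 159 ± 30.1 and 173 ± 25.9 CPM. Nsf, the ATPase that pulls spent SNARE bundles apart, was at 759.9 ± 112, 688 ± 127 and 731 ± 202 CPM. Its adaptor Napb was at 140.0 ± 26.8, 119 ± 28.8 and 142 ± 37.9 CPM. Across the 8 regulators, the median fold change was -0.17 after training, 0.18 for the siRNA label in trained animals and -0.00079 between the Rnf20-labelled and naive libraries.

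Synaptotagmins carry the calcium signal to the fusion machinery. Syt7, a high-affinity sensor linked to slow release, was at 174, 166, 167, 152 and 160.1 CPM in the naive libraries. It was at 164, 181, 119.6, 131 and 123 CPM in the scrambled trained libraries. It was at 181, 166, 199, 156 and 152 CPM in the Rnf20-labelled libraries. Scrambled trained libraries 10, 15 and 16 lay below all naive and all Rnf20-labelled libraries, while library 6 lay above all naive libraries, so the scrambled trained group lay on both sides of the naive one. The fold change of Syt7 between the Rnf20-labelled and scrambled trained libraries was 0.25 (SE 0.11, 95% interval 0.006 to 0.49, unadjusted p = 0.0452, edgeR adjusted p = 0.832). Syt1, the fast sensor of most forebrain synapses, was at 1259 ± 162, 1060.2 ± 217 and 1168 ± 304 CPM. Syt4 was at 169 ± 19.1, 165 ± 35.5 and 180.2 ± 38.7 CPM and had a fold change of -0.035 after training, the value nearest to 0 among the 37 genes. Syt11, a synaptotagmin that does not sense calcium in the usual way, was at 1189.9 ± 96.0, 1058 ± 102 and 1114 ± 156 CPM and had the narrowest spread within groups of the 37, an SD of 0.16 on the log2 scale. Between the Rnf20-labelled and naive libraries, Syt11 stood at -0.10 (SE 0.11, 95% interval -0.33 to 0.13, unadjusted p = 0.391, edgeR adjusted p = 1.00). Syt2, a fast sensor known from inhibitory and hindbrain neurons, is described with the most variable genes.

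For the siRNA label the members of smallest p were the active zone genes Rims1, Rims2 and Bsn. In the training comparison the smallest p was that of Rims1, followed by Unc13b and Vamp1, which are not active zone genes. Rims1 encodes a scaffold that joins Rab3 on the vesicle to Munc13 and to calcium channels. Rims1 was at 337, 325, 388, 346 and 275 CPM in the naive libraries. It was at 338, 247, 227, 218 and 236 CPM in the scrambled trained libraries. It was at 368, 336, 336, 304 and 333 CPM in the Rnf20-labelled libraries. Of the scrambled trained libraries 6, 10, 15 and 16 lay below every naive and every Rnf20-labelled library, and library 5 lay among both. All 5 Rnf20-labelled libraries lay inside the naive range. The fold change of Rims1 was -0.40 (SE 0.12, 95% interval -0.66 to -0.15, unadjusted p = 0.00420, edgeR adjusted p = 0.379) between scrambled trained and naive libraries. It was 0.41 (SE 0.12, 95% interval 0.15 to 0.66, unadjusted p = 0.00389, edgeR adjusted p = 0.832) between Rnf20-labelled and scrambled trained libraries. Between the Rnf20-labelled and naive libraries it was 0.0045 (SE 0.12, 95% interval -0.25 to 0.26, unadjusted p = 0.971, edgeR adjusted p = 1.00).

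Rims2, a paralog of Rims1 with the same role, was at 99.1, 78.0, 97.8, 86.1 and 72.3 CPM in the naive libraries. It was at 89.2, 64.3, 75.9, 60.4 and 66.6 CPM in the scrambled trained libraries. It was at 104, 90.4, 86.1, 75.4 and 118 CPM in the Rnf20-labelled libraries. Scrambled trained libraries 6, 15 and 16 lay below every library of the other groups, and Rnf20-labelled libraries 4 and 20 lay above every other library. Its fold change for the siRNA label was 0.41 (SE 0.13, 95% interval 0.13 to 0.70, unadjusted p = 0.00755, edgeR adjusted p = 0.832). After training under scrambled siRNA the fold change of Rims2 was -0.28 (SE 0.13, 95% interval -0.57 to 0.0027, unadjusted p = 0.0519, edgeR adjusted p = 0.504). Against the naive group the Rnf20-labelled libraries stood at 0.13 (SE 0.13, 95% interval -0.15 to 0.41, unadjusted p = 0.348, edgeR adjusted p = 1.00) for Rims2.

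Bassoon, encoded by Bsn, and piccolo, encoded by Pclo, are giant scaffolds that organise the vesicle cluster. Bsn was at 516, 479, 531, 447 and 542 CPM in the naive libraries. It was at 556, 517, 327, 385 and 359 CPM in the scrambled trained libraries. It was at 594, 510.1, 684, 435 and 597 CPM in the Rnf20-labelled libraries. Scrambled trained libraries 10, 15 and 16 lay below every other library, library 5 lay above every naive library, and Rnf20-labelled libraries 4, 14 and 20 lay above all naive and all scrambled trained libraries. The siRNA label gave Bsn a fold change of 0.40 (SE 0.15, 95% interval 0.073 to 0.72, unadjusted p = 0.0194, edgeR adjusted p = 0.832). Against the naive libraries the value was 0.17 (SE 0.15, 95% interval -0.16 to 0.49, unadjusted p = 0.291, edgeR adjusted p = 1.00). Pclo was at 229 ± 53.2, 209 ± 71.6 and 267 ± 77.7 CPM, and its fold change between Rnf20-labelled and naive libraries was 0.22 (SE 0.24, 95% interval -0.28 to 0.73, unadjusted p = 0.362, edgeR adjusted p = 1.00). The ELKS scaffolds Erc1 and Erc2 were at 124 ± 22.5, 110.5 ± 21.5 and 121 ± 29.5 CPM and at 40.6 ± 11.5, 35.2 ± 9.42 and 39.2 ± 10.4 CPM. All 7 active zone genes had a negative fold change after training (median -0.23) and a positive one for the siRNA label (median 0.40), with no test of the group of 7. The median of the 7 between Rnf20-labelled and naive libraries was 0.02.

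**Figure D2:**
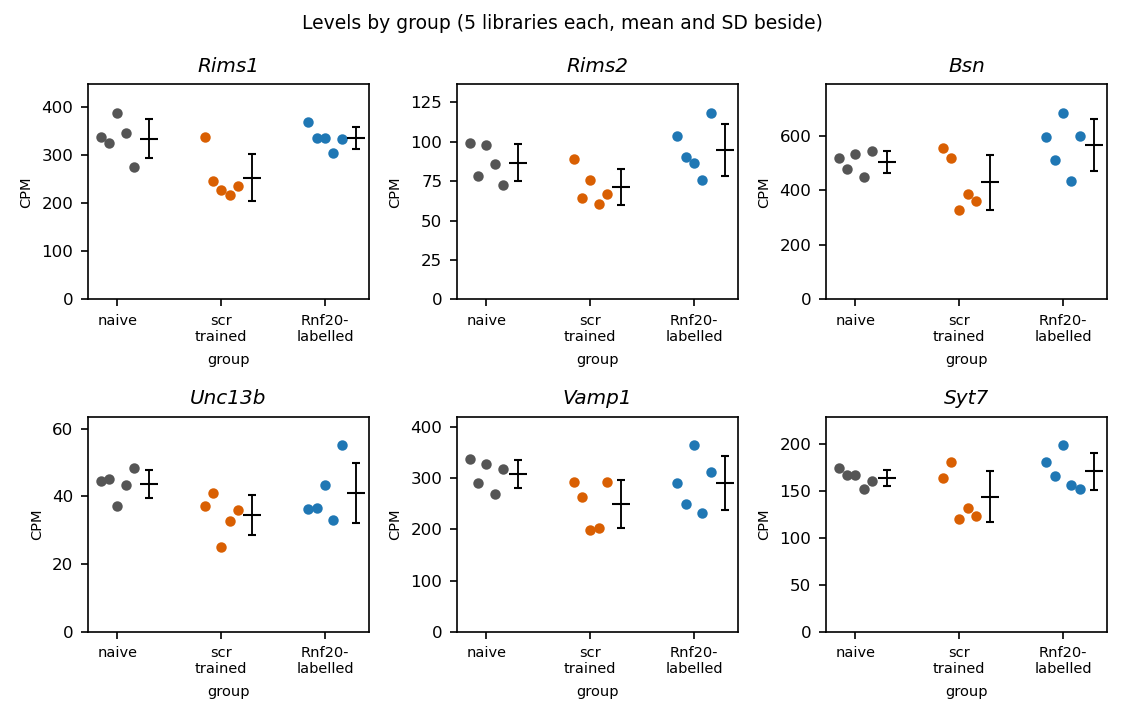
Level in CPM (vertical axes) of the 6 genes at an unadjusted p under 0.05 in the training or siRNA label comparison, 1 panel per gene, with a point per library and the group mean and SD beside the points (n = 5). In the Rims1 panel 4 scrambled trained points lie at 218 to 247 CPM and the other at 338 CPM, while the Rnf20-labelled points lie at 304 to 368 CPM.

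Rab3 proteins are small GTPases that sit on vesicles and bind Rims proteins, and Rph3a encodes rabphilin, which binds Rab3. Rph3a was at 277, 245, 301, 277 and 173 CPM in the naive libraries. It was at 247, 202, 195, 179 and 239.6 CPM in the scrambled trained libraries. It was at 297, 237, 264, 203 and 274 CPM in the Rnf20-labelled libraries. All 10 trained libraries of both siRNA labels lay inside the naive range, which was set at its low end by naive library 12. The fold change of Rph3a was -0.26 (SE 0.14, 95% interval -0.57 to 0.047, unadjusted p = 0.0908, edgeR adjusted p = 0.573) after training and 0.26 (SE 0.14, 95% interval -0.045 to 0.57, unadjusted p = 0.0894, edgeR adjusted p = 0.832) for the siRNA label. Rab3a, the main brain form, was at 215 ± 28.4, 186 ± 31.0 and 201 ± 47.1 CPM and Rab3c at 37.4 ± 6.09, 32.7 ± 10.9 and 39.3 ± 8.78 CPM. Rab3b was at 19.2 ± 2.07, 18.3 ± 2.88 and 18.5 ± 5.98 CPM, with fold changes of -0.068 and 0.014 in the comparisons of training and of siRNA label.

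Of the vesicle proteins, the synapsins Syn1 and Syn2 hold vesicles in a reserve cluster. Syn1 was at 584, 488, 523, 470.0 and 558 CPM in the naive libraries. It was at 518, 480.3, 344, 373 and 399 CPM in the scrambled trained libraries. It was at 509.6, 464, 591, 328 and 587 CPM in the Rnf20-labelled libraries. Scrambled trained libraries 10, 15 and 16 and Rnf20-labelled libraries 8 and 18 lay below every naive library, and the remaining libraries of both trained groups reached into the naive range or above it. Its fold change after training was -0.31 (SE 0.15, 95% interval -0.64 to 0.013, unadjusted p = 0.0584, edgeR adjusted p = 0.519). Syn2 was at 277 ± 52.8, 241 ± 51.8 and 277 ± 69.5 CPM. Syp, or synaptophysin, an abundant membrane protein of vesicles, was at 609 ± 82.8, 518 ± 82.1 and 582 ± 138 CPM. Sv2a, the binding site of the antiepileptic drug levetiracetam, was at 319 ± 37.1, 289.8 ± 45.8 and 307 ± 82.6 CPM. Slc17a7, the transporter that loads vesicles with glutamate, was at 1691 ± 189, 1455 ± 286 and 1654 ± 333 CPM. These 4 genes had fold changes of -0.23 to -0.14 after training and of 0.08 to 0.20 for the siRNA label, with adjusted p-values in edgeR of at least 0.65.

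Endocytic genes followed the same pattern. Dnm1 encodes dynamin, the GTPase that cuts vesicles from the membrane, and was at 848 ± 149, 747 ± 157 and 816 ± 237 CPM. Amph, or amphiphysin, which recruits dynamin, was at 12.8 ± 2.48, 11.6 ± 1.63 and 14.2 ± 3.75 CPM, and its fold change between Rnf20-labelled and naive libraries was 0.15 (SE 0.18, 95% interval -0.24 to 0.53, unadjusted p = 0.424, edgeR adjusted p = 1.00). Synj1, the phosphoinositide phosphatase that strips clathrin coats, was at 433 ± 70.1, 364 ± 76.4 and 414 ± 97.0 CPM. The fold changes of the 3 genes were -0.25 to -0.14 after training and 0.13 to 0.29 for the siRNA label.

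The size of the shift shared by the 37 genes differed between libraries. Relative to the range of the 5 naive libraries, 28 of the 37 genes were below it in scrambled trained library 10, where 29.6% of all genes were. In library 15 the count was 27, where 24.1% of all genes were below, and in library 16 it was 22, where 25.2% were. In scrambled trained libraries 5 and 6 only 1 and 8 of the 37 genes were below the range, where 17.8% and 22.9% of all genes were. The scrambled trained group thus held 3 libraries with most of the 37 genes low and 2 with most of them inside the naive range. In the Rnf20-labelled group, 28 of the 37 genes were below the range in library 18, where 28.2% of all genes were. In Rnf20-labelled libraries 4, 8, 14 and 20 the counts were 1, 9, 2 and 2, where 13%, 17%, 26.9% and 18.5% of all genes were below. Above the naive range lay 17 of the 37 in Rnf20-labelled library 14, where 23.4% of all genes were, and 12 in library 20, where 18.7% were. So the Rnf20-labelled group had 1 low library against 3 in the scrambled trained group, and 2 libraries in which many of the 37 genes were high.

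**Figure D3:**
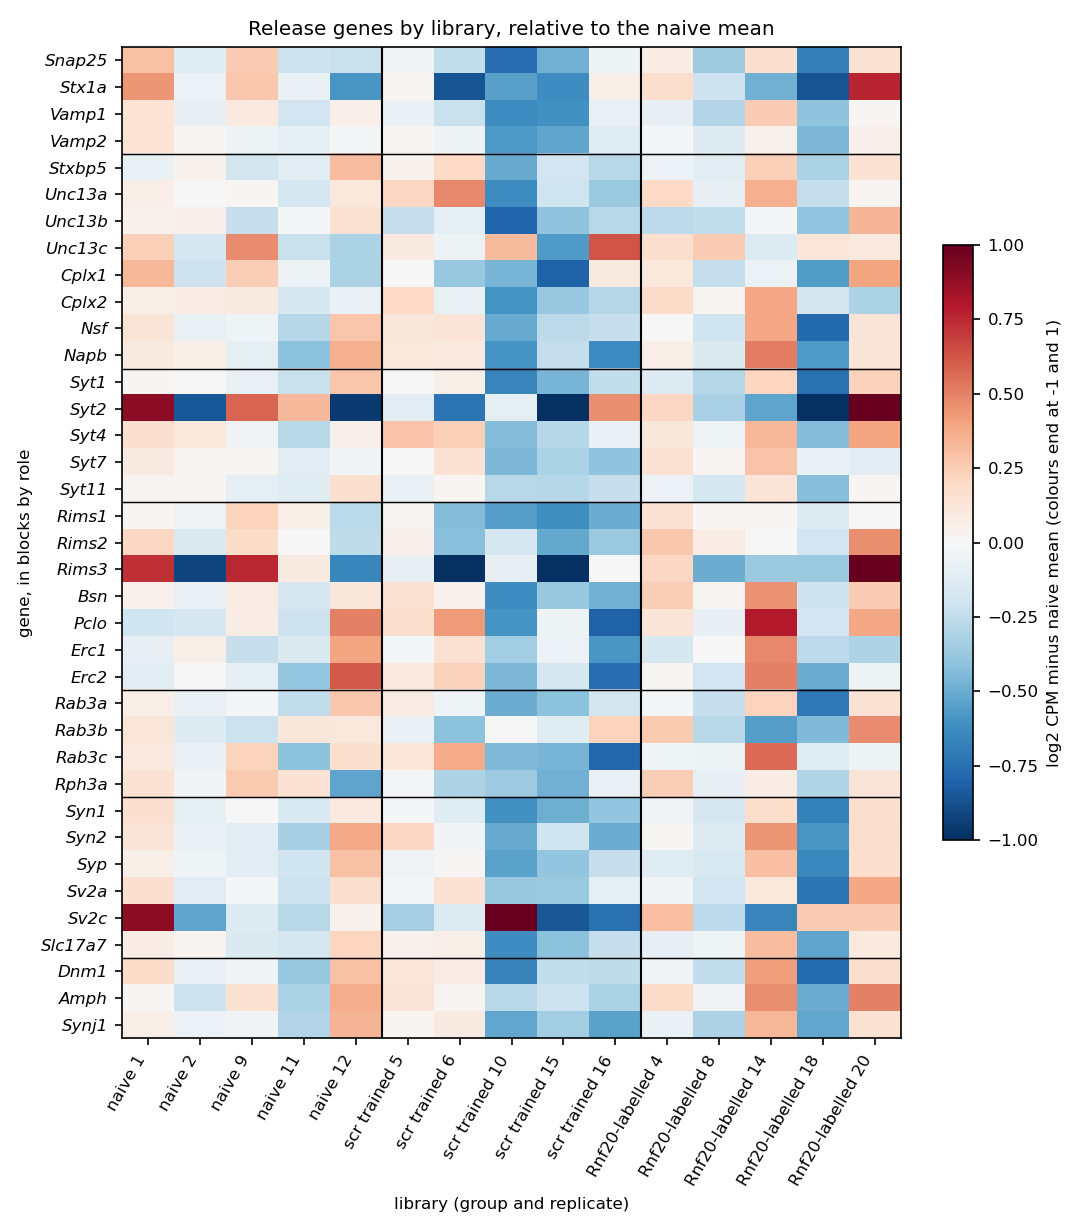
Deviation of log2 CPM from the naive mean for each of the 37 genes (rows, by role) in each of the 15 libraries (columns, by group), on a colour scale from lower to higher. Scrambled trained libraries 10, 15 and 16 and Rnf20-labelled library 18 have 22 to 28 genes below the naive range, and Rnf20-labelled library 14 has 17 above it.

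Marker lists for several cell types differed between these libraries and groups. The median deviation of the 37 genes from the naive mean was -0.50, -0.39 and -0.25 log2 units in scrambled trained libraries 10, 15 and 16, and -0.44 in Rnf20-labelled library 18. For 12 pan-neuronal markers, none of which is among the 37, the median deviation was -0.56, -0.36 and -0.12 in the same 3 scrambled trained libraries and -0.59 in Rnf20-labelled library 18. In Rnf20-labelled library 14 the 37 genes stood at 0.24 and the pan-neuronal markers at 0.26. The summed level of 17 reactive glia genes was 3532 to 5421 CPM in the naive libraries. In scrambled trained libraries 10, 15 and 16 it was 9572, 10704 and 7509 CPM, and in Rnf20-labelled library 18 it was 9233 CPM, against 2695 CPM in library 14. Its range was 4840 to 10704 CPM over the scrambled trained group and 2695 to 9233 CPM over the Rnf20-labelled group, with 17 of 18 listed genes present and none of them at 0 in every library. Scrambled trained libraries 10 and 15 and Rnf20-labelled library 18 were thus low for the 37 genes and for pan-neuronal markers and high for reactive glia genes. Scrambled trained library 16 was high for reactive glia genes. Its median pan-neuronal deviation of -0.12 was close to the -0.11 of naive library 11. Its summed pan-neuronal level, however, was 4714 CPM, below the naive range of 5018 to 5931 CPM. Scrambled trained library 6 had a reactive glia sum of 6386 CPM with the 37 genes at 0.0083, and Rnf20-labelled library 8 had a pan-neuronal deviation of -0.19 with the 37 genes at -0.15. All 12 pan-neuronal markers were below 0 after training (median -0.19), and all 12 were above 0 for the siRNA label (median 0.11). Of 17 reactive glia genes tested, 16 were above 0 after training (median 0.99). At an unadjusted p under 0.05 in edgeR, 10 of them were higher (6.62% of all genes). For the siRNA label all 17 were below 0 (median -0.66), and 4 were lower at that level (2.98% of all genes). All 10 listed CA3 pyramidal markers were present, with sums of 1123 to 1433 CPM, 995 to 1235 CPM and 1094 to 1792 CPM in the 3 groups. After training 8 of the 9 CA3 markers tested were below 0 (median -0.24), and for the siRNA label 8 of 9 were above 0 (median 0.26). After training 3 of them were lower at an unadjusted p under 0.05 in edgeR (3.35% of all genes) and 2 without overlap (0.659%). Of 7 CA1 pyramidal markers tested, 5 were above 0 after training (median 0.042) and 5 below 0 for the siRNA label (median -0.35). Of 9 dentate granule markers, 7 were above 0 after training (median 0.23) and 5 for the siRNA label (median 0.022). Of 11 interneuron markers, 10 were below 0 after training (median -0.11) and 8 above 0 for the siRNA label (median 0.086). All 12 oligodendrocyte markers were below 0 after training (median -0.26). Of these, 4 were lower at an unadjusted p under 0.05 in edgeR, where 3.35% of all genes were. For the siRNA label 11 of the 12 were above 0 (median 0.13), and 1 was higher at that level, where 2.63% of all genes were. The oligodendrocyte sums were 16840 to 29740 CPM, 13190 to 29640 CPM and 15400 to 26240 CPM in the 3 groups. No CA3, dentate granule, interneuron or oligodendrocyte marker present was at 0 in every library. The part of these markers in the fold changes of the 37 genes was not tested. In bulk RNA, fewer cells of a type and less RNA per cell cannot be told apart.

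**Figure D4:**
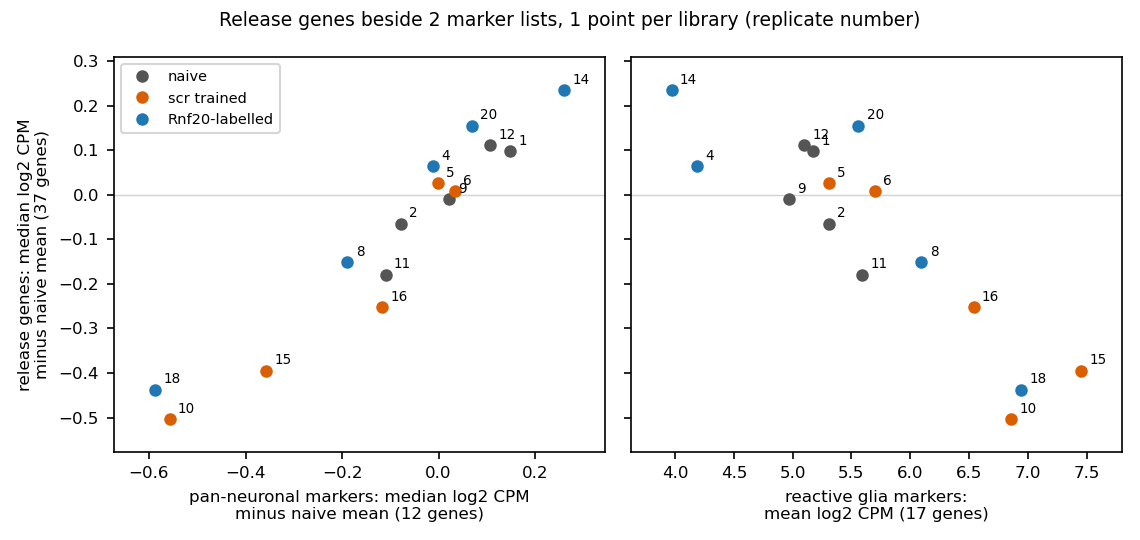
Median deviation of the 37 genes from the naive mean (vertical axes, log2 units) against the median deviation of 12 pan-neuronal markers and against the mean log2 CPM of 17 reactive glia genes (horizontal axes), 1 point per library, coloured by group and numbered. Scrambled trained libraries 10 and 15 and Rnf20-labelled library 18 lie lowest, at -0.50, -0.39 and -0.44.

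The roles are given library by library as a description, with no test. In Rnf20-labelled library 18 the 9 genes that stayed inside the naive range were Rims1, Rims2, Rims3, Pclo, Unc13c, Syt7, Rab3c, Rph3a and Sv2c. The active zone genes Bsn, Erc1 and Erc2 were below the range there. The median deviation in that library was -0.20 for active zone genes and -0.61 to -0.36 for the 6 other roles. In scrambled trained library 16 it was -0.50 for active zone genes and -0.32 to -0.061 for the other roles. In scrambled trained libraries 10 and 15 it was -0.45 and -0.38 for active zone genes, inside the span of the other roles, which was -0.60 to -0.40 and -0.57 to -0.24. Rims1 was at 304 CPM in Rnf20-labelled library 18 and at 227, 218 and 236 CPM in scrambled trained libraries 10, 15 and 16. The pan-neuronal deviations of these libraries were -0.59, -0.56, -0.36 and -0.12, in that order. Their pan-neuronal sums were 4082, 3552, 4260 and 4714 CPM, all below the lowest naive sum of 5018 CPM. The part of neuronal RNA in the level of Rims1 was not tested. The pan-neuronal score of each library was also added to the fit as a covariate, chosen after the data were seen. In that fit the fold change of Rims1 was -0.33 after training (edgeR adjusted p = 0.29). For the siRNA label it was 0.36 (edgeR adjusted p = 0.57). The median of the 37 genes in that fit was -0.028 after training and 0.033 for the siRNA label. Over all 27 alternatives, the fold change of Rims1 after training ran from -0.54 to -0.28, with adjusted p from 0.112 to 0.837, and that for the siRNA label from 0.29 to 0.55, with adjusted p from 0.242 to 1.00 (edgeR, DESeq2 or limma-voom, according to the alternative).

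The training and siRNA label values also moved when libraries were left out. Without scrambled trained libraries 10 and 15 and Rnf20-labelled libraries 14 and 18, the 4 farthest out on the first principal component, the median of the 37 genes was -0.085 after training and 0.056 for the siRNA label, with 32 of 37 still below 0 and 29 of 37 still above 0. At an unadjusted p under 0.05, 1 gene was lower after training, where 5.87% of all genes were, and 2 were higher for the siRNA label, where 4.21% were. Without scrambled trained library 5, the training comparison had 8 of the 37 lower at that level, where 4.51% of all genes were, and a median of -0.29, and the fold change of Rims1 was -0.53. No gene of the 37 passed an adjusted p of 0.05 in any of the 27 alternatives.

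Some genes varied widely within every group. Syt2 had the largest SD within groups, 0.83 on the log2 scale, followed by Rims3 (0.71), Sv2c (0.59) and Stx1a (0.49). Syt2 was at 30.7, 9.08, 24.6, 20.6 and 8.41 CPM in the naive libraries. It was at 15.3, 9.80, 15.3, 5.98 and 22.7 CPM in the scrambled trained libraries. It was at 19.0, 13.1, 11.3, 7.44 and 39.7 CPM in the Rnf20-labelled libraries. Rims3, which encodes a short Rim protein, was at 28.6, 9.08, 29.1, 18.4 and 10.9 CPM in the naive libraries. It was at 16.2, 6.41, 16.3, 8.36 and 17.3 CPM in the scrambled trained libraries. It was at 19.9, 12.2, 13.3, 13.3 and 38.5 CPM in the Rnf20-labelled libraries. Both genes were highest in Rnf20-labelled library 20 and high in naive libraries 1 and 9, and both were highest within the scrambled trained group in library 16. The fold changes of Syt2 were -0.44 and 0.39 and those of Rims3 -0.58 and 0.59 in the comparisons of training and of siRNA label, with no adjusted p under 0.65 in edgeR.

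The sum of the 11 interneuron markers present was highest in naive library 1 and Rnf20-labelled library 20, at 1325 and 1282 CPM. It was lowest, at 743 CPM, in Rnf20-labelled library 18, and was 1035 CPM in naive library 9. The interneuron sum was 971 to 1325 CPM, 816 to 1223 CPM and 743 to 1282 CPM in the 3 groups. A list of 8 neocortical markers, added after these values were seen, had its highest sums, 221 CPM each, in naive library 1 and Rnf20-labelled library 20, and its lowest, 111 CPM, in Rnf20-labelled library 18. The neocortical sum was 118 to 221 CPM in the naive, 113 to 158 CPM in the scrambled trained and 111 to 221 CPM in the Rnf20-labelled libraries, with all 8 markers present and none at 0 in every library. Sv2c, a vesicle protein enriched in the basal ganglia, was at 13.2, 4.86, 6.42, 5.77 and 7.27 CPM in the naive libraries. It was at 5.58, 6.41, 14.6, 3.84 and 4.14 CPM in the scrambled trained libraries. It was at 8.69, 5.84, 4.42, 8.42 and 8.43 CPM in the Rnf20-labelled libraries. The 2 highest values were in naive library 1 and scrambled trained library 10. The same 2 libraries had the highest sums of 10 striatal markers, 516 and 954 CPM, where the other naive libraries had 224 to 348 CPM. All 10 striatal markers were present, none was at 0 in every library, and their sum was 163 to 954 CPM in the scrambled trained and 204 to 438 CPM in the Rnf20-labelled libraries. The part of interneuron, neocortical or striatal RNA in the levels of Syt2, Rims3 and Sv2c was not tested.

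**Figure D5:**
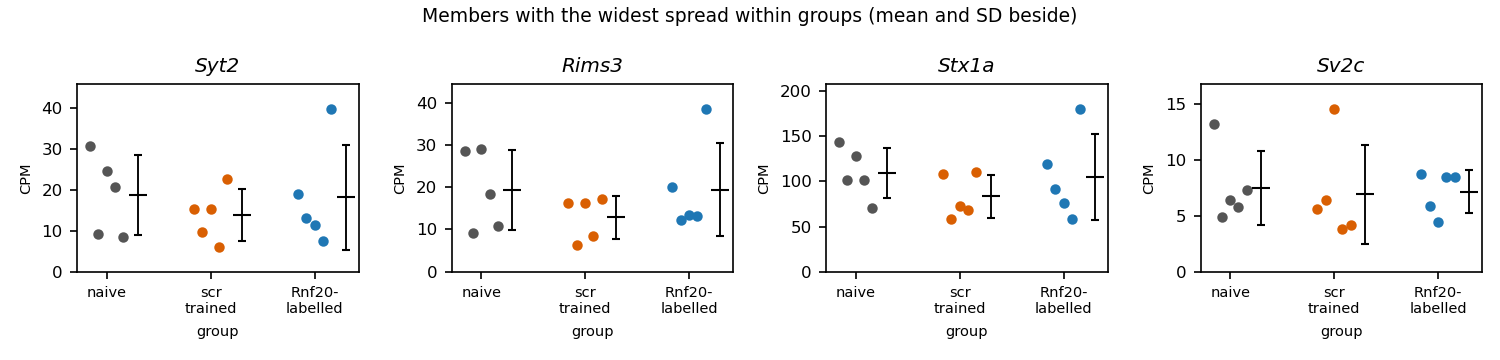
Level in CPM (vertical axes) of Syt2, Rims3, Stx1a and Sv2c in each library of the 3 groups, with the group mean and SD beside the points (n = 5). Syt2 and Rims3 are highest in Rnf20-labelled library 20 (39.7 and 38.5 CPM), and Sv2c is highest in scrambled trained library 10 (14.6 CPM).

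Ratios between paralogs within a library do not depend on how libraries are scaled, and their change between groups does not depend on gene length. For 10 pairs and 3 comparisons, 30 two-sided exact permutation tests were made, each over every division of the 10 libraries into 5 and 5, with a smallest possible p of 0.00794. None of the 30 had a p under 0.05, and all adjusted p-values were 0.984. The smallest p was 0.111, for Unc13a over Unc13b, whose log2 ratio was 2.37 ± 0.26 in the scrambled trained and 2.11 ± 0.15 in the naive libraries (difference 0.26, exact permutation test). For Rims1 over Rims2, the log2 ratio was 1.82 ± 0.15 in the scrambled trained, 1.95 ± 0.11 in the naive and 1.84 ± 0.21 in the Rnf20-labelled libraries.

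The wider presynaptic gene set gave a measure of the surroundings of the 37. Of 76 other listed genes for release, vesicle filling and endocytosis, 75 were present and tested. After training, 61 of the 75 had a negative fold change with a median of -0.15, where 52.8% of all genes were below 0. None passed an adjusted p of 0.05 in edgeR, and 5 were lower at an unadjusted p under 0.05, where 3.35% of all genes were. For the siRNA label in trained animals, 59 had a positive fold change with a median of 0.10, where 50.7% of all genes did. None passed, and 2 were higher at that level, a share close to the 2.63% of all genes. Between Rnf20-labelled and naive libraries, 48 were below 0 with a median of -0.025, where 49.4% of all genes were below 0. None passed, and 1 was lower at that level, where 1.09% of all genes were.

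Among these other genes, those of smallest p included proteins that work on the endocytic side. Bin1, an amphiphysin relative, was at 319 ± 21.9, 261 ± 24.3 and 291 ± 35.1 CPM, with a fold change after training of -0.29 (SE 0.0953, 95% interval -0.49 to -0.084, unadjusted p = 0.00869, edgeR adjusted p = 0.384). Dnm3, a dynamin, was at 50.1 ± 6.41, 40.0 ± 3.34 and 49.0 ± 10.2 CPM. Its fold change was -0.32 (SE 0.13, 95% interval -0.60 to -0.043, unadjusted p = 0.0265, edgeR adjusted p = 0.443) after training and 0.29 (SE 0.13, 95% interval 0.01 to 0.57, unadjusted p = 0.0429, edgeR adjusted p = 0.832) for the siRNA label. Apba1, the adaptor Mint that binds Munc18, was at 135 ± 13.0, 116 ± 26.4 and 142 ± 16.8 CPM, with a fold change for the siRNA label of 0.29 (SE 0.13, 95% interval 0.0089 to 0.58, unadjusted p = 0.0440, edgeR adjusted p = 0.832). Rph3al, a rabphilin relative without its calcium-binding domains, was at 9.81 ± 0.684, 8.04 ± 1.20 and 7.52 ± 1.21 CPM. All libraries of both trained groups lay below all naive libraries for Rph3al, the only 1 of the 75 to do so, where 0.659% of all genes did after training and 0.249% between Rnf20-labelled and naive libraries. The fold change between Rnf20-labelled and naive libraries was -0.38 (SE 0.13, 95% interval -0.67 to -0.10, unadjusted p = 0.0114, edgeR adjusted p = 1.00). Sh3gl3, an endophilin, was at 71.9 ± 4.21, 61.8 ± 8.10 and 64.8 ± 6.36 CPM, with a fold change between the same groups of -0.15 (SE 0.0929, 95% interval -0.35 to 0.046, unadjusted p = 0.123, edgeR adjusted p = 1.00).

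Promoter sequences are given for 4 of the 37 genes as a description. Whether promoter sequence had a part in the shared directions of fold change was not tested. Rims1 and Bsn are active zone genes with small p-values, Syn1 holds both a cAMP response element and Egr matches, and Unc13a is the gene with matches to both parts of the RE1 element, which binds the repressor of neuronal genes called REST. The windows run from 250 bases before the transcription start to 50 bases after it and come from RefSeq on the assembly GRCr8, which is not the assembly of the counts. They lie at chr9:32692723-32693022 on the minus strand, chr8:117754363-117754662 on the minus strand, chrX:3725495-3725794 on the plus strand and chr16:18415737-18416036 on the minus strand, and each covers the promoter and the first bases of its gene. Each is written 5′ to 3′ on the strand of its gene, and capitals mark the motifs searched.
Rims1: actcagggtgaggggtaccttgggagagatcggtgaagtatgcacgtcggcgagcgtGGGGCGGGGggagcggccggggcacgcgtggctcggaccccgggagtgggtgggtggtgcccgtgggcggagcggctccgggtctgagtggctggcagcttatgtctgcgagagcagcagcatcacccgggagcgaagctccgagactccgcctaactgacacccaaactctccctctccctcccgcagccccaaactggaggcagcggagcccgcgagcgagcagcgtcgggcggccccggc
Bsn: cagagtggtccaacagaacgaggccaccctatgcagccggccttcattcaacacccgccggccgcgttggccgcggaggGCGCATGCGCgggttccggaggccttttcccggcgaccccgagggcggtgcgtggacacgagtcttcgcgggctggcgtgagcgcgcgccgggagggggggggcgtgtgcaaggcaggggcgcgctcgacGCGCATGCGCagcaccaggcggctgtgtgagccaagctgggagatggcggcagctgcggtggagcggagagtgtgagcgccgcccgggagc
Syn1: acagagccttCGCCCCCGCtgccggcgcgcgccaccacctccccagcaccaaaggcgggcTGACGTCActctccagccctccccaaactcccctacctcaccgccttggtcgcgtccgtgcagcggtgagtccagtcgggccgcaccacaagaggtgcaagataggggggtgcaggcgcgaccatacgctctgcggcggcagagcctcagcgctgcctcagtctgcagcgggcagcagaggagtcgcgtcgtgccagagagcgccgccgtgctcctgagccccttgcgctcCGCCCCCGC
Unc13a: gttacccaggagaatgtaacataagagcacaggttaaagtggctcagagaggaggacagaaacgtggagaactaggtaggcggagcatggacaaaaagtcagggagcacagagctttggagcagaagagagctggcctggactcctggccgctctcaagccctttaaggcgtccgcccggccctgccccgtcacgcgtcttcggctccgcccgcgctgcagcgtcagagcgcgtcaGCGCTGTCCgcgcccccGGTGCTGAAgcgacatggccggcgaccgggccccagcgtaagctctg

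Of the 37 genes, 34 had a promoter in that table, with 35 promoters in all since Unc13b had 2. Their median GC content was 64.7%, against 51.7% over 33469 rat promoters. The letters of each motif were searched on both strands, and 2 pairs of different motifs overlapped in these promoters. The GC box GGGGCGGGG, a site of Sp factors, was in 10 of the 35 (28.6%) and in 9.73% of all promoters. The Egr motif GCGGGGGCG was in 8 of the 35 (22.9%; Cplx1, Nsf, Stxbp5, Syn1, Syn2, Syp, Syt1 and Vamp2) and in 2.73% of all promoters. GC-rich letters were thus more common in these promoters than in all promoters, as was their GC content, and no test of this was made. The cAMP response element TGACGTCA was in the promoters of Syn1 and Vamp1 and in 1.83% of all. The NRF1 motif GCGCATGCG was in those of Bsn, Stx1a and Stxbp5 and in 1.52% of all. The left part of the RE1 element, TTCAGCACC, was in the promoter of Unc13a and in 0.356% of all, and the right part, GGACAGCGC, was in those of Unc13a and Pclo and in 0.415% of all. TATAAA was in none of the 35 and in 14.2% of all promoters. Of the genes with the smallest p-values, Rims1 held a GC box, Bsn NRF1 matches and Vamp1 a cAMP response element. The 2 promoters of Unc13b held none of the motifs searched, and the promoters of Rims2 and Syt7 were not analysed here. A match describes the letters of the window and does not show that a factor binds there.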

How the data were processed

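Per the submitters' processing notes, reads were processed with Trim Galore, FastQC and featureCounts 2.0.1 on Rnor_6.0, and DESeq2 was named. The kit keeps strand, per the labels' protocols. The aligner, annotation release and strand setting are, in the sources used here, not given, so reads of overlapping genes may be shared. The deposited table holds raw counts per gene. The deposited normalised signal equalled the count over a DESeq2 size factor (0 genes differing at a relative tolerance of 1e-06) and was not used further.

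Gene tests used edgeR 4.0.16 under R 4.3.3: TMM scaling, filterByExpr, and robust quasi-likelihood F tests over all 15 libraries (residual degrees of freedom: 12). Benjamini-Hochberg adjustment covered 14880 genes, with a threshold of 0.05. Log2 CPM used a prior count of 2, and log2 paralog ratios an added count of 0.5. The script was tested on counts simulated with known changes in the training comparison. At the same threshold it recovered 7.46% of 1.25-fold, 58.2% of 1.5-fold and 89.4% of 2-fold changes. Of 108 genes called, 5 had not been changed. In this simulation each gene was drawn independently, and only genes above a minimum mean count were changed. Shifts shared by many genes of a library were not simulated, so these rates do not measure recovery or false calls in the real libraries.

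The members and gene lists were chosen with earlier results of these data known. Fold changes with SE and p were given for the 6 members of smallest p per comparison and, of the other presynaptic genes, the 2 of smallest p. Rims1 between the Rnf20-labelled and naive libraries and the values given for the role groups are descriptions beside that rule. Alternatives were DESeq2 1.42.0, limma-voom (limma 3.58.1), upper-quartile and median-ratio scaling, no filter, 1 CPM in 5 libraries, fits of only the 2 groups compared, 1 surrogate variable (sva 3.50.0), a microglia score, each library left out in turn, the 4 libraries far out on component 1 left out, and the 3 lowest for choroid plexus left out. The pan-neuronal covariate was added after the data were seen.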

Additional observations from a re-analysis of the deposited data

Results flagged for a closer look

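A library stood apart from the other 4 of its group, by Dixon's criterion (a gap above 0.71 of the group's range), for 3 of the 37 genes. Chance gives this in about 1 in 20 groups, and 4 of the 111 groups tested met it. Rims1 was at 338.4 CPM in scrambled trained library 5, where the other 4 libraries of the group were at 218 to 247 CPM. Rab3c was at 54.91 CPM in Rnf20-labelled library 14, where the others were at 34.1 to 35.8 CPM. Sv2c was at 13.17 CPM in naive library 1, where the others were at 4.86 to 7.27 CPM, and at 14.55 CPM in scrambled trained library 10, where the others were at 3.84 to 6.41 CPM.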

How the results depend on the processing

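No gene of the 37 passed an adjusted p of 0.05 under any of the 27 alternatives. The 6 genes of smallest p in each comparison kept their direction in it, while others of the 37 did not. Those 6 were picked by p from the same libraries, so their kept direction is not separate support. Of the 36 below 0 after training, the count was 23 with the pan-neuronal covariate, 26 with 1 surrogate variable, 29 with the microglia score and 32 without the 4 libraries far out on the first component. The count above 0 for the siRNA label, 36, was 23, 17, 21 and 29 in the same order, and the 22 below 0 between Rnf20-labelled and naive libraries were 5 without Rnf20-labelled 18. The count at an unadjusted p under 0.05 after training, 3 in edgeR on all libraries, was 5 with DESeq2 and with only the 2 groups compared (2.98% and 3.61% of all genes lower), 1 with 1 surrogate variable (6.72%), with the microglia score (3.39%) and without the 4 far libraries (5.87%), and 11 without the 3 libraries lowest for choroid plexus, scrambled trained 5 and 16 and Rnf20-labelled 20 (5.67%). The count for the siRNA label in trained animals, 4, was 2 with 1 surrogate variable (5.32% of all genes higher), with the microglia score (2.39%) and without the 4 far libraries (4.21%). Between Rnf20-labelled and naive libraries the count of 0 was 1 higher with the pan-neuronal covariate (1.53% of all genes). The median for the siRNA label, 0.20, was -0.0154 with 1 surrogate variable, 0.010 with the microglia score, 0.033 with the pan-neuronal covariate and 0.056 without the 4 far libraries. The median after training, -0.21, was -0.047, -0.081, -0.028 and -0.085 in the same order. The causes were not tested. Leaving out each library in turn gave counts of 2 to 8 after training (8 without scrambled trained 5, with 4.51% of all genes lower, and 5 without Rnf20-labelled 18, with 3.37%) and of 2 to 8 for the siRNA label (8 without Rnf20-labelled 18, with 4.93% of all genes higher, 7 without scrambled trained 6, with 3.69%, and 2 without scrambled trained 16 or Rnf20-labelled 14, with 2.03% and 3.04%). With 1 library left out, the medians ran from -0.29 to -0.14 after training, from 0.11 to 0.28 for the siRNA label and from -0.087 to 0.077 between Rnf20-labelled and naive libraries. Paralog ratios at an unadjusted p under 0.05 numbered 0 to 1 after training (1 without naive 1 or scrambled trained 16) and 0 to 2 between Rnf20-labelled and naive libraries (1 without naive 12, 2 without Rnf20-labelled 20). Over all genes, DESeq2 called 53 after training, where edgeR called 0, and 1 in each of the other comparisons. No paired analysis was possible because the groups share no replicate numbers. The depth is enough to count every one of the 37 genes in every library, and with 5 libraries a group the spread between libraries sets what can be detected.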
